A study of Equus caballus with 24 samples.

Results

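Gene expression in circulating IgE-binding monocytes was compared between the “Clinical Phase” and the “Remission Phase” of 7 allergic Icelandic horses. The members are the 14 libraries whose labels give the allergy status as allergic, 7 from each phase, out of 24 libraries in the series. They were joined into pairs by the horse code of each deposited file, A1 to A7, and the replicate is the horse. The horses were adults, mostly mares, of mixed genetic background with naturally acquired seasonal Culicoides hypersensitivity, a skin allergy to biting midges. In the “Remission Phase” (January and February) the horses met no midges and counted as clinically healthy, and in the “Clinical Phase” (August and September) they were exposed and had clinical signs. The same animals make up both groups, neither group was given an experimental treatment, and all horses received the same vaccinations and a moxidectin and praziquantel dewormer each December, shortly before the “Remission Phase” samples. The remaining 10 libraries come from 5 healthy horses that lived with the allergic ones and met the same midges, each sampled in the same periods, and serve here as the measure of seasonal change in animals without clinical signs. Live CD14low, IgE+, MHCII high, CD16- and CD163- cells were sorted from blood, frozen, and their poly-A RNA was sequenced. The phases also differed in season, in winter hay against summer grass, in the distance from deworming and in the time of sampling, so these and the disease phase cannot be told apart in allergic horses alone. The labels give no sequencing or extraction batch.

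Monocytes are phagocytes of the blood that take up microbes and debris, release cytokines and can become macrophages or dendritic cells in tissue. IgE is the antibody class of immediate allergy, and it is carried on cells by Fc receptors, of which the high-affinity receptor is best known on mast cells and basophils. In horses a subset of blood monocytes carries IgE on the surface, and crosslinking of that IgE by allergen can make these cells release mediators. In Culicoides hypersensitivity, allergen-specific IgE persists through the winter while the skin disease returns with the midges.

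The count files list 30371 genes by Ensembl identifier, and 13174 of them reached a level of 0.5 CPM (counts scaled to a common library size) in 1 or more of the 14 libraries and were tested. Of the genes listed, 13182 had 0 counts in all 14 libraries. No identifier could be paired with a gene symbol from the files or the reference table, so gene families, pathways and the markers of the sorted cells or of other blood cells could not be counted. A gene that carries a name below was recognised as the only one whose DESeq2 difference between allergic and healthy horses, in size and adjusted p, equals what the study prints for that name, with the printed size read as a log2 value. It is called, for example, the ND5-matched gene, and such a match is no annotation.

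Library totals ran from 17558184 to 40404429 counts in the “Remission Phase” and from 15537450 to 24832163 counts in the “Clinical Phase”. They were lower in the “Clinical Phase” in 6 of 7 horses (two-sided exact sign-flip permutation test, p = 0.0938, and 0.25 after Benjamini-Hochberg adjustment over 8 library measures). The 10 most abundant genes took 13.6 ± 2.18% of the counts in the “Remission Phase” against 12.1 ± 0.840% in the “Clinical Phase” (SD, n = 7, exact sign-flip permutation p = 0.0781, adjusted p = 0.25). One library stood apart, the “Remission Phase” library of horse A6. It had counts for 11802 genes against 13130 to 13877 in the other “Remission Phase” libraries, a TMM factor (the scaling of its library size) of 0.747 against 0.935 to 1.09, and 45.0% of its counts in the 100 most abundant genes against 32.4% to 40.4%. The total numbers of called genes and each fold change printed for a named gene in allergic horses are therefore given with and without horse A6, while the breakdowns of the calls by size and abundance are given with it only.

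Of the sum of squares of log2(CPM + 4) over the tested genes, the phase held 22.6%, the horse 43.5% and the remainder 33.9%. Without horse A6 the shares were 21.4%, 53.4% and 25.3%. The horse shares are spread over more degrees of freedom than the phase share, so their sizes are not compared. On the first principal component, which held 42.9% of the variance, every horse had a higher score in the “Clinical Phase” than in its own “Remission Phase”. The library of horse A6 was the lowest of all 14 in the “Remission Phase”, at -64.9, and the highest in the “Clinical Phase”, at 42.7. The other 6 horses moved from between -21.1 and 4.51 to between 1.85 and 24.8, so their phases overlapped on this component.

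In the comparison paired by horse, 221 of the 13174 genes had an adjusted p under 0.05 by edgeR's quasi-likelihood test, which is 1.68% of the genes. Of these, 177 were higher in the “Clinical Phase” (1.34%) and 44 were lower (0.334%), and the smallest adjusted p was 0.00299. With a change of at least 1 on the log2 scale as a second condition, 109 genes were higher (0.827%) and 20 were lower (0.152%). The unadjusted p was under 0.05 for 2600 genes (19.7%), of which 1428 were higher (10.8%) and 1172 were lower (8.90%). The lean to higher expression in the “Clinical Phase” was thus larger among the called genes than at the looser threshold. In bulk libraries, a change in the share of a kind of cell within the sort and a change of RNA per cell cannot be told apart. The log2 fold changes of all tested genes had a median of -0.01 (quartiles -0.26 and 0.34), which the TMM scaling sets near 0, so a shift common to most genes could not be seen.

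The genes that rose changed more than those that fell. Log2 fold changes of the 177 higher genes had a median of 1.22 and ran from 0.45 to 5.43, with a median standard error (SE) of 0.22. Among them, 31 rose by at least 2, 10 by at least 3 and 7 by at least 4 on the log2 scale. The 44 lower genes had a median of -0.97 and ran from -1.91 to -0.50, with a median standard error of 0.18, so no called gene fell by 2 or more on that scale. Over the 14 libraries the median level was 38.6 CPM for the higher genes, 18.8 CPM for the lower genes and 13.3 CPM for all tested genes. This level takes in both phases, so a rise lifts it and a fall lowers it. The medians therefore do not rank the sets by abundance apart from the change. The share of genes called increased with abundance. It was 0.155% of 2577 genes under 1 CPM, 1.44% of 3398 genes from 1 to 10 CPM, 1.98% of 5558 genes from 10 to 100 CPM and 3.53% of 1641 genes at 100 CPM or above. The standard error fell over the same classes, from a median of 1.10 to 0.303, 0.163 and 0.135, so the scarce genes were those where a change was hardest to detect at this depth. At 100 CPM or above, 54 genes rose and 4 fell.

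**Figure D1:**
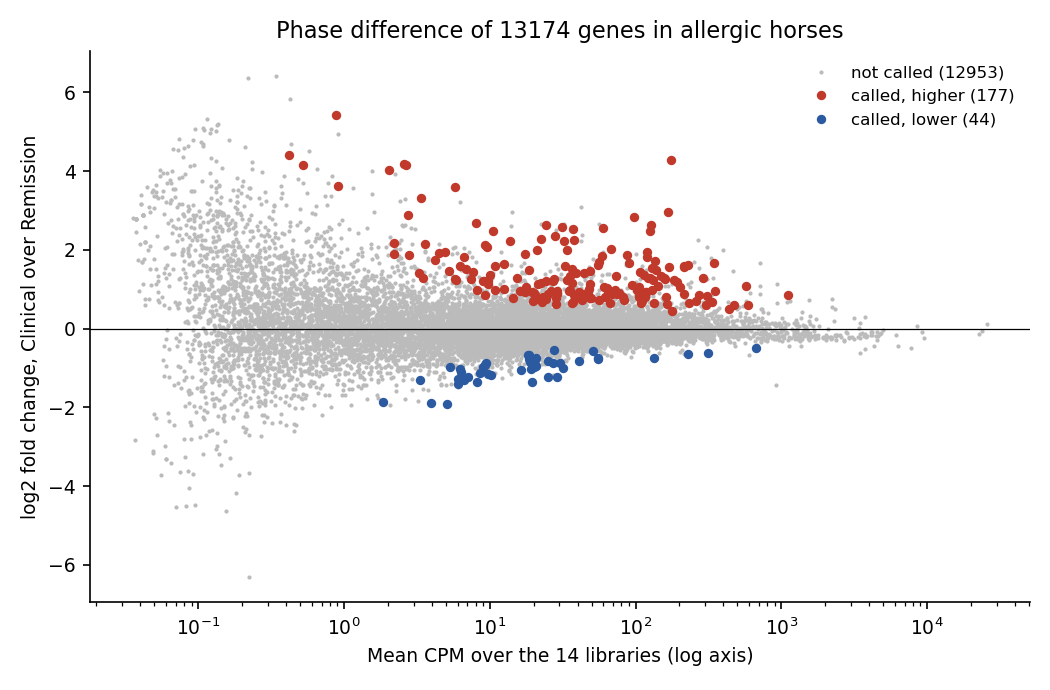
Log2 fold change of the “Clinical Phase” over the “Remission Phase” in the 7 allergic horses (vertical axis) against the mean level of each tested gene in CPM (horizontal axis, log scale), with the 177 genes called higher in red and the 44 called lower in blue. Called genes lie mostly above 1 CPM, and those above 0 reach 5.43 while those below 0 stop at -1.91.

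No tested gene was silent in one phase and present throughout the other. Among the 13174 tested genes, 0 had counts in all 7 libraries of one phase and in none of the other, in either direction. Genes below the level for testing were not checked for this. Counts in all 14 libraries were found for 212 of the 221 called genes and for 10714 of the 13174 tested genes. The phases did not overlap, with every “Clinical Phase” library above or below every “Remission Phase” library, in 258 genes (1.96% of those tested), 185 above and 73 below. Among the called genes, this held for 77 that rose and 13 that fell. In the other called genes at least 1 library of one phase lay within the range of the other phase.

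By direction alone, 841 genes were higher in the “Clinical Phase” in all 7 horses (6.38% of those tested) and 648 were lower in all 7 (4.92%). Of the 177 genes that rose, 169 were among the 841, and the other 8 were higher in 6 horses. Likewise 42 of the 44 genes that fell were lower in all 7 horses and the other 2 in 6. Only 20.1% of the genes higher in every horse and 6.48% of the genes lower in every horse passed the test, and the median log2 fold change of these sets was 0.81 and -0.57. Among them, 314 genes were at least doubled and 79 were at most at 50% by the fitted fold change.

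The size of the change differed among animals. Over the 177 genes that rose, the median log2 ratio of CPM + 4 between the “Clinical Phase” and the “Remission Phase” was 1.58 in horse A6, 1.14 in A1, 1.12 in A2, 0.73 in A7, 0.67 in A3, 0.66 in A4 and 0.49 in A5. Over the 44 genes that fell it was -1.19 in A6, from -0.76 to -0.65 in A1, A2, A3 and A7, -0.48 in A4 and -0.34 in A5. Horse A6 thus showed the largest and A5 the smallest change in both sets. These genes were chosen on the same libraries, so the medians describe and do not test. Between 173 and 177 of the higher genes were higher in each single horse, and between 42 and 44 of the lower genes were lower.

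Horse A6 also differed over all genes. The standard deviation of its log2 ratios of CPM + 4 was 0.956, against 0.248 to 0.412 in the other horses. In A6, 1831 genes were at least doubled and 1324 were at most at 50% on this scale, while in A5 these counts were 22 and 1. The part of the deviating “Remission Phase” library in this difference was not tested. Between pairs of horses, the correlation of log2 ratios across genes ran from 0.193 to 0.611 with a median of 0.366. It is given as a description over 13174 genes, which are not independent replicates. The mean correlation of a horse with the other 6 was lowest for A5, at 0.294, and highest for A1, at 0.448.

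**Figure D2:**
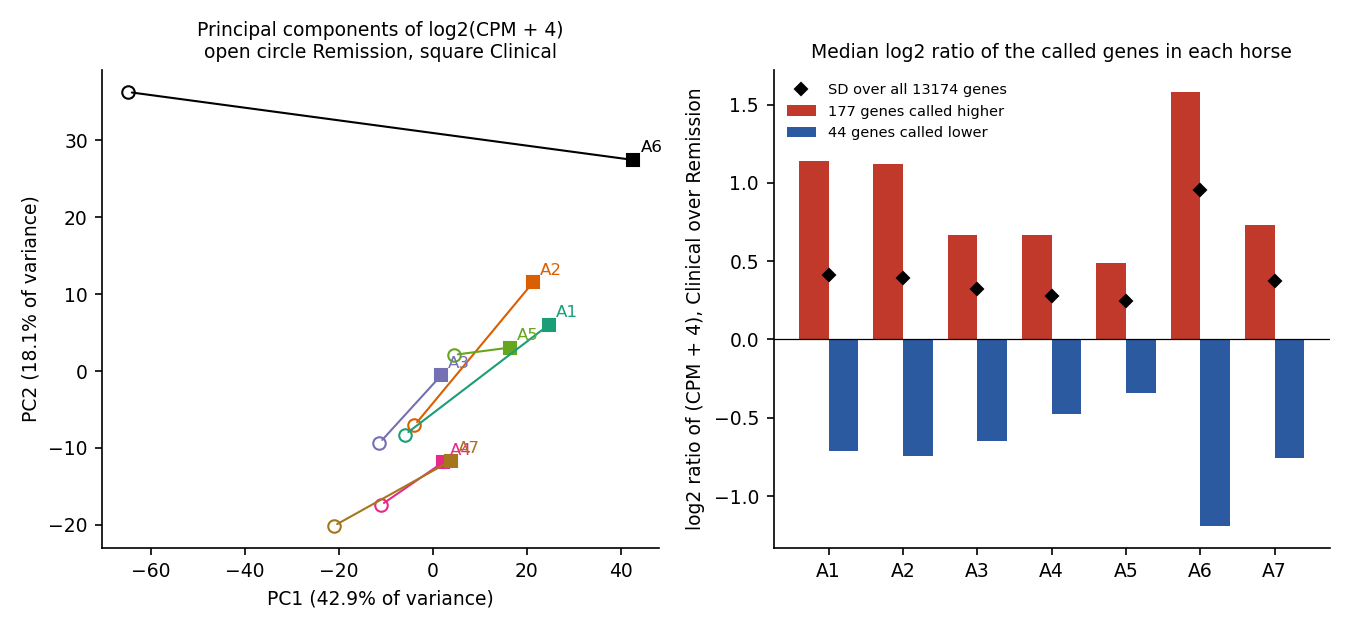
Left, the first 2 principal components of log2(CPM + 4), with the “Remission Phase” (open circle) and “Clinical Phase” (square) library of each horse joined by a line, and right, the median log2 ratio of CPM + 4 between the phases in each horse for the genes called higher and lower (bars), with the SD of the ratios over all tested genes (diamonds). The line of A6 is the longest, its SD of 0.956 stands above the rest, and the bars of the higher genes run from 0.49 in A5 to 1.58 in A6.

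Together the 177 genes that rose took 0.800% to 1.30% of a library in the “Remission Phase” and 1.51% to 3.36% in the “Clinical Phase”, after TMM scaling. The phases did not overlap in this sum, but its genes were chosen for being higher in these same libraries, so the sum describes their abundance and tests nothing. In horse A6 it went from 0.800% to 3.36%, and in A5 from 1.30% to 1.84%. The 44 genes that fell took 0.213% to 0.286% in the “Remission Phase” and 0.125% to 0.199% in the “Clinical Phase”. The called genes of both directions were thus a small part of the messenger RNA in either phase.

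Of the genes that rose in all 7 horses with a mean of at least 5 CPM, the one that changed most was ENSECAG00000011929. Its level ran from 1.00 to 169 CPM with a median of 14.7 CPM in the “Remission Phase”, and from 99.5 to 887 CPM with a median of 235 CPM in the “Clinical Phase”. Horse A5 had by far the highest “Remission Phase” level, 169 CPM, and lay inside the “Clinical Phase” range, while the other 6 horses lay at 46.0 CPM or below. The within-horse ratio spanned 1.39 in A5 to 582 in A6, so the gene rose in each animal by a very different factor. The mean went from 37.2 ± 60.4 to 313 ± 280 CPM (SD, n = 7), with a log2 fold change of 4.27 (SE 0.89, edgeR adjusted p = 0.0411). Without horse A6 it was 3.56 (edgeR adjusted p = 0.00162). The call held in 2 of the 7 fits that left out 1 horse, those without A5 or A6. It was lost without A1, A2, A3, A4 or A7, with edgeR adjusted p values of 0.155, 0.135, 0.0788, 0.0942 and 0.0967, and also with no replicate block (0.0739), with edgeR's own filter (0.0514) and with robust dispersion (0.0905).

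The next was ENSECAG00000023971. It had 0 to 2.84 CPM with a median of 1.05 CPM in the “Remission Phase” and 3.16 to 18.5 CPM with a median of 11.7 CPM in the “Clinical Phase”. Every “Clinical Phase” library lay above every “Remission Phase” library. Horse A6 had 0 counts in the “Remission Phase”, and against the limit of 0.229 CPM that a count of 0 allows there (3 counts), the gene was at least 80.9-fold higher in the “Clinical Phase”. Over the horses its log2 fold change was 3.58 (SE 0.50, edgeR adjusted p = 0.0164), and 3.19 without horse A6 (edgeR adjusted p = 2.51e-05). The call was lost without A1, A2 or A4, with edgeR adjusted p values of 0.0980, 0.102 and 0.0619.

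Among the genes that fell, ENSECAG00000011723 changed most. It went from 4.34 to 11.7 CPM with a median of 6.58 CPM in the “Remission Phase” to 0.778 to 4.54 CPM with a median of 1.60 CPM in the “Clinical Phase”. The phases overlapped only through A4, whose “Clinical Phase” level of 4.54 CPM lay above the “Remission Phase” level of A5. The ratio was 0.857 in A5 and as low as 0.0752 in A6. This gave a log2 fold change of -1.91 (SE 0.37, edgeR adjusted p = 0.0306), and -1.61 without horse A6 (edgeR adjusted p = 0.00284). For ENSECAG00000010315 the medians were 8.43 and 2.90 CPM, and the ranges were 4.38 to 13.1 CPM and 1.49 to 5.99 CPM. Horse A5 again had the lowest “Remission Phase” level, below the “Clinical Phase” levels of A4 and A7. Its log2 fold change was -1.42 (SE 0.28, edgeR adjusted p = 0.0355), and -1.22 without horse A6 (edgeR adjusted p = 0.00587). Both genes that fell were called in 2 of the 7 fits that left out 1 horse, and lost the call without A1, A2, A3, A4 or A7. The edgeR adjusted p then lay as high as 0.135 for the first and 0.141 for the second.

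**Figure D3:**
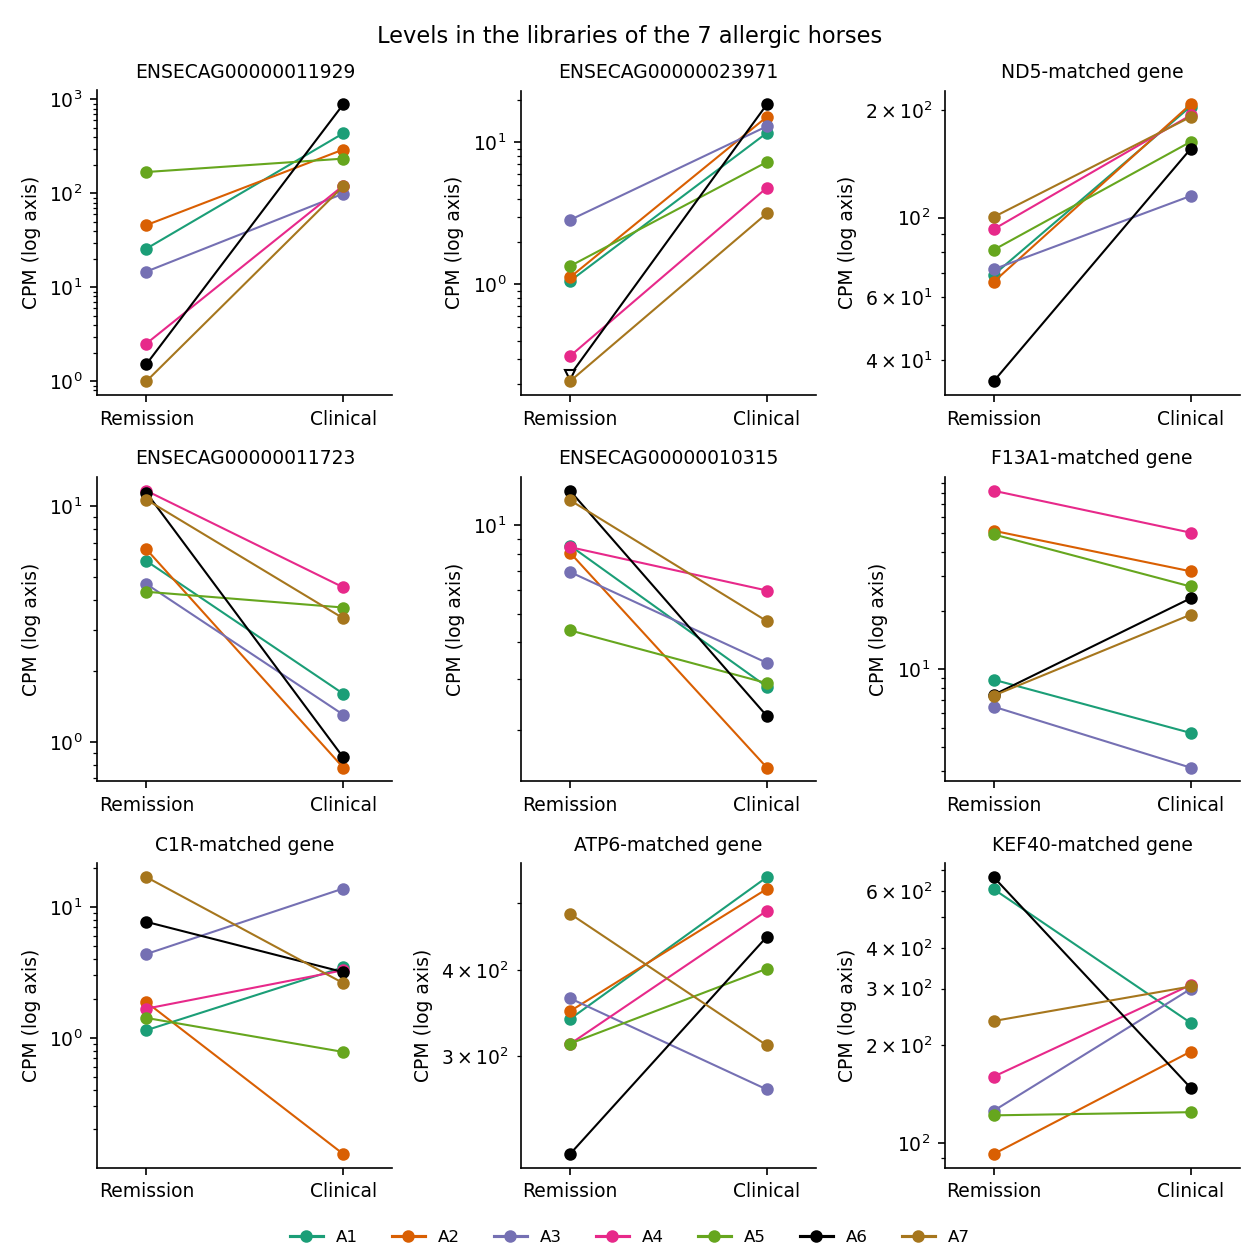
Level in CPM (log axis) of 9 named genes in the “Remission Phase” and the “Clinical Phase”, each line joining the libraries of 1 allergic horse, with an open triangle at the limit for the library with 0 counts. All 7 lines rise for ENSECAG00000011929, ENSECAG00000023971 and the ND5-matched gene, and all 7 fall for ENSECAG00000011723 and ENSECAG00000010315.

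Of the genes the study names, one passed the test between phases. Genes encoded by the mitochondrial genome supply subunits of the respiratory chain and of ATP synthase, and ND5 is a core subunit of complex I, which passes electrons from NADH to ubiquinone. The ND5-matched gene (ENSECAG00000027694) had 34.9 to 100 CPM with a median of 71.7 CPM in the “Remission Phase” and 115 to 207 CPM with a median of 191 CPM in the “Clinical Phase”. All 7 “Clinical Phase” libraries lay above all 7 “Remission Phase” libraries. The mean rose from 73.7 ± 21.3 to 176 ± 33.2 CPM (SD, n = 7), with ratios from 1.60 in A3 to 4.46 in A6. By the paired test it rose by 1.29 on the log2 scale (SE 0.17, edgeR adjusted p = 0.0145), and without horse A6 it was 1.15 (edgeR adjusted p = 9.22e-05). It was called in 4 of the 7 fits that left out 1 horse and lost the call without A1, A2 or A4, with edgeR adjusted p values of 0.0980, 0.102 and 0.0511.

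The other named mitochondrial genes did not pass. ATP6 is a subunit of the proton channel of ATP synthase. The ATP6-matched gene (ENSECAG00000027671) had a mean of 339 ± 79.1 CPM in the “Remission Phase” against 426 ± 105 CPM in the “Clinical Phase” (SD, n = 7), with higher values in 5 of 7 horses. It was lower in A3, from 364 to 269 CPM, and in A7, from 482 to 311 CPM. The log2 fold change was 0.32 (SE 0.19, edgeR adjusted p = 0.372), and 0.21 without horse A6 (edgeR adjusted p = 0.505). For the KEF40-matched gene (ENSECAG00000027676) the “Remission Phase” range of 92.3 to 663 CPM enclosed that of the “Clinical Phase”, 124 to 308 CPM. It was higher in 5 of 7 horses and lower in A1, from 609 to 235 CPM, and in A6, from 663 to 148 CPM. The log2 fold change was 0.06 (SE 0.38, edgeR adjusted p = 0.949), and 0.40 without horse A6 (edgeR adjusted p = 0.379). Its direction changed with the horses left out and with the model. Whether the ND5-matched gene differs from the other 2 in its change was not tested.

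The remaining named genes belong to coagulation, complement, chemokine sensing and RNA binding. F13A1 encodes the A chain of coagulation factor XIII, which crosslinks fibrin and is made by monocytes and macrophages. The F13A1-matched gene (ENSECAG00000008295) ran from 6.43 to 82.2 CPM with a median of 8.84 CPM in the “Remission Phase” and from 3.13 to 50.1 CPM with a median of 23.1 CPM in the “Clinical Phase”. Horses A1 to A5 all had lower levels in the “Clinical Phase”, with ratios from 0.487 to 0.620, while A6 and A7 had 3.12 and 2.60 times their “Remission Phase” level. The log2 fold change over all 7 was -0.21 (SE 0.34, edgeR adjusted p = 0.758), and -0.49 without horse A6 (edgeR adjusted p = 0.257). C1R encodes a serine protease of the first complement component. The C1R-matched gene (ENSECAG00000021429) had 1.15 to 16.9 CPM in the “Remission Phase” and 0.130 to 13.8 CPM in the “Clinical Phase”, with higher values in 3 horses and lower values in 4. Its log2 fold change was -0.42 (SE 0.62, edgeR adjusted p = 0.732), and -0.17 without horse A6 (edgeR adjusted p = 0.915).

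CCR10 is a receptor for the skin and mucosal chemokines CCL27 and CCL28. The CCR10-matched gene (ENSECAG00000038719) was under 0.5 CPM in all 14 libraries and was not tested. It had 3 counts over the 7 “Remission Phase” libraries, all in A5, and 9 counts over the 7 “Clinical Phase” libraries, spread over A2, A3, A4, A6 and A7. At this depth no change can be read from these counts. IGF2BP3 binds messenger RNA. The IGF2BP3-matched gene (ENSECAG00000016797) had counts in A3 and A7 alone, 1 and 3 in the “Remission Phase” and 12 and 4 in the “Clinical Phase”.

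The healthy horses show how far these changes were shared with animals without clinical signs that went through the same seasons. In the 5 healthy horses, 552 of 12918 genes were called between the phases (4.27%), 290 higher (2.24%) and 262 lower (2.03%) in the “Clinical Phase”. This count rested on single animals, with 0 calls without H7, 4 without H1, 12 without H4, 137 without H2 and 1766 without H6, and the shared calls and gene sets below are those of the fit with all 5. The 2 comparisons share no library. The difference between allergic and healthy horses in the phase change was tested as an interaction over all 24 libraries, and 0 of 13597 genes passed by edgeR's quasi-likelihood test. The unadjusted p was under 0.05 for 441 genes (3.24%), the smallest adjusted p was 0.954, and DESeq2 also called 0 genes. A p that misses the threshold does not show that the phase changes were alike.

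All 221 called genes had the direction of the allergic horses in the healthy horses too, 177 of 177 up and 44 of 44 down. Over all genes tested in both, this held for 8535 of 12495 genes (68.3%). The healthy median log2 fold change was 0.94 for the genes that rose, where the allergic median was 1.22, and -0.85 for the genes that fell, where it was -0.97. A larger change in the allergic horses is what choosing on their values favours. In all 5 healthy horses singly, 105 of the 177 were higher and 27 of the 44 were lower. Over all genes tested in both groups, 2063 (16.5%) had the allergic direction in all 5 healthy horses. Called in the same direction in both groups were 121 genes, 95 higher and 26 lower, which is 54.8% of the calls in allergic and 21.9% of the calls in healthy horses. Of all genes tested in both, 4.30% were called in healthy horses with the direction of the allergic ones. Of the 221, 11 had an unadjusted interaction p under 0.05, beside 426 of the 12495 genes tested in both.

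**Figure D4:**
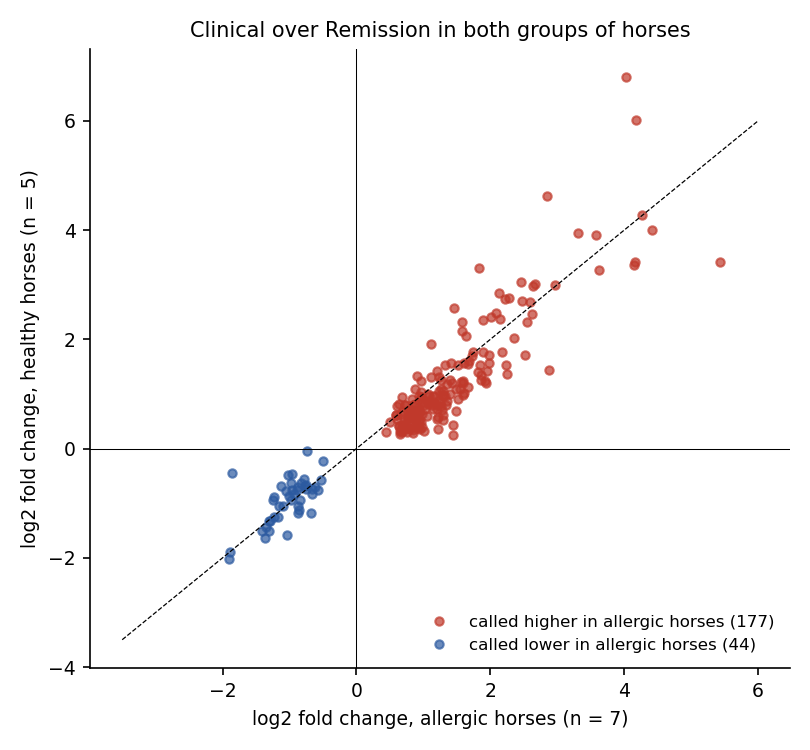
Log2 fold change between the phases in the 5 healthy horses (vertical axis) against that in the 7 allergic horses (horizontal axis), with 1 point for each of the 221 genes called in allergic horses and a dashed line where both are equal. All 177 red and 44 blue points lie in the quadrants where the signs are the same.

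Genes called in the healthy horses give a view of the allergic horses that does not depend on their own values. Of the 290 genes that rose in healthy horses, 283 were higher in the allergic horses as well, 185 (63.8%) in each of the 7, against 6.38% of all genes tested in allergic horses. Their median log2 fold change was 0.98 in allergic and 0.96 in healthy horses. An unadjusted p under 0.05 with the same direction was found for 251 (86.6%), against 10.8% of all genes tested in allergic horses. The shares over all genes here and below take in the 2577 genes under 1 CPM, where a change was hardest to detect. They were not matched in abundance to the genes called in healthy horses. Of the 262 genes that fell in healthy horses, 254 were lower in the allergic horses, 99 (37.8%) of them in each of the 7, against 4.92% of all genes. Their median was -0.50 in allergic and -0.76 in healthy horses, and 170 (64.9%) had an unadjusted p under 0.05 against 8.90% of all genes. By horse, the median log2 ratio of CPM + 4 over the 290 genes was 1.58 in A6, 0.90 in A2, 0.89 in A1, 0.52 in A7, 0.48 in A4, 0.46 in A3 and 0.28 in A5. The horses with the largest and smallest change, A6 and A5, were the same on these genes as on those chosen in allergic horses. The lists share 95 of the genes that rose. Over all tested genes, A6 and A5 also had the largest and smallest SD of log2 ratios, 0.956 and 0.248. The shared order of these horses is therefore no separate support. For the 262 genes the medians lay between -0.59 in A6 and -0.12 in A5.

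In the healthy horses the ND5-matched gene rose in 5 of 5, by 0.99 on the log2 scale (SE 0.09, edgeR adjusted p = 0.00704), against 1.29 in allergic horses (interaction 0.29, edgeR adjusted p = 0.954). ENSECAG00000023971 rose by 3.92 (SE 0.77, edgeR adjusted p = 0.0279) and was higher in 5 of 5. In H6 it went only from 0.728 to 0.851 CPM, a ratio of 1.17. ENSECAG00000011929 had a log2 fold change of 4.28 (SE 1.18, edgeR adjusted p = 0.0639), and it was higher in 4 of 5 while H6 went from 41.1 to 12.7 CPM. ENSECAG00000011723 and ENSECAG00000010315 fell by 2.02 and 1.51 in healthy horses (edgeR adjusted p = 0.0247 and 0.0476), though the latter was 1.01 times its “Remission Phase” level in H6.

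The KEF40-matched gene rose by 1.13 in healthy horses (SE 0.20, edgeR adjusted p = 0.0240), in 5 of 5, where the allergic horses had 0.06. The allergic value was 0.40 without horse A6 and ran from -0.14 to 0.40 over the horses left out, and 5 of 7 allergic horses had higher levels. The interaction was -1.07 (SE 0.52, edgeR adjusted p = 0.954), so the difference between the groups did not pass. The F13A1-matched gene had 0.37 in healthy horses (edgeR adjusted p = 0.543), with higher values in all 5, where 5 of 7 allergic horses had lower ones (interaction -0.59, edgeR adjusted p = 0.954). The ATP6-matched gene had -0.01 (edgeR adjusted p = 0.985) and the C1R-matched gene 0.95 (SE 0.59, edgeR adjusted p = 0.367). For the CCR10-matched gene, healthy horses had 0 to 15 counts per library in the “Remission Phase” and 9 to 29 in the “Clinical Phase” (log2 fold change 3.91, SE 1.21, edgeR adjusted p = 0.0871).

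The number of called genes rested on which animals were included. Without horse A6, 934 of 12977 genes were called (7.2%), 652 higher (5.02%) and 282 lower (2.17%). Of the 221 genes, 220 were among them, which is 99.5% of the 221 and 23.6% of the 934. Leaving out A5 gave 157 calls, A3 36, A7 19, A4 6, A1 4 and A2 2. Of the 221 genes, 2 were called in each of these 7 fits. The sign of all 221 was the same in each, which their choice favours, since every one had its direction in 6 or 7 of the 7 horses. The median log2 fold change of the 177 genes stayed between 1.04 and 1.31 and that of the 44 between -1.01 and -0.85. DESeq2 on the same paired libraries called 1236 genes, which held all 221 with the same sign. A total of 220 genes, 176 of them higher, were called by edgeR with all horses, by edgeR without A6 and by DESeq2.

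**Figure D5:**
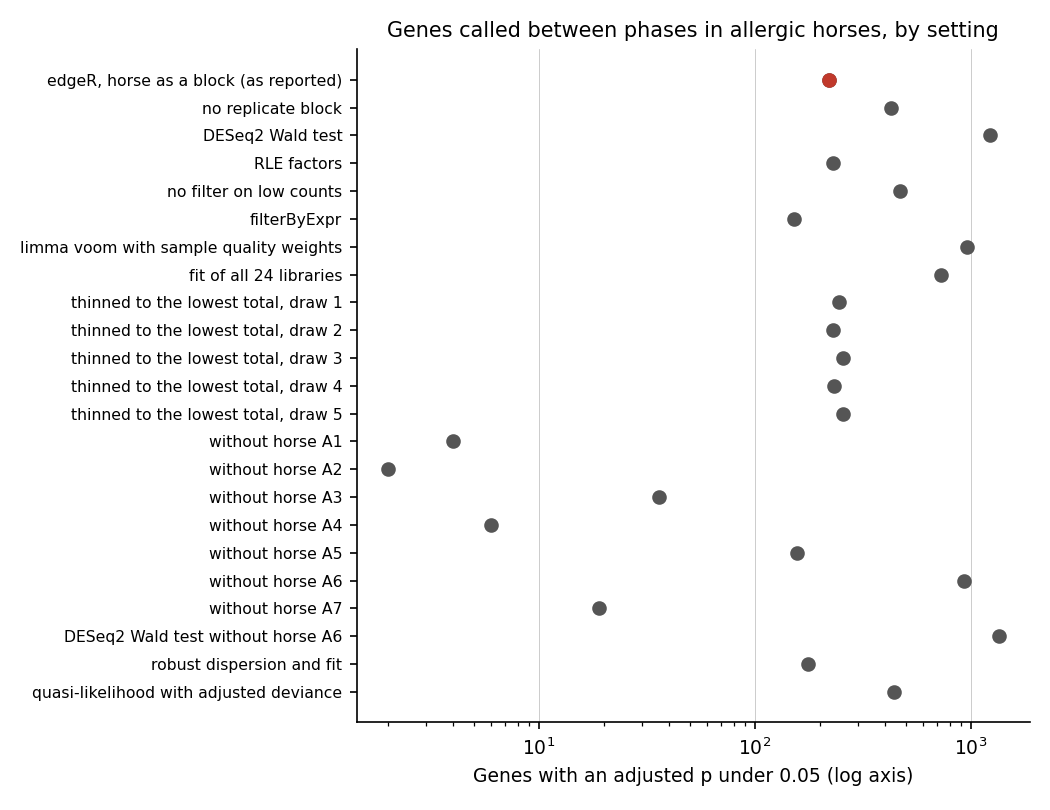
Number of genes called between the phases in allergic horses (horizontal log axis) under each setting of the analysis, with 1 point per setting and the paired edgeR comparison of all 7 horses in red. The points run from 2 without horse A2 to 1356 with DESeq2 without horse A6, with the red point at 221.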

How the data were processed

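RNA of sorted IgE-binding monocytes was sequenced from 7 allergic and 5 healthy horses in both phases. The authors deposited raw counts per gene, made per the labels with Trim Galore 0.6.0, STAR 2.7.0e and the genome build EquCab3.0. Counting tool, strand setting and annotation release: not given in the sources used here, although the library kit keeps strand. Libraries hold 15537450 to 40404429 counts, and limits from counts of 0 cover counting error only.

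A gene was kept where 1 or more libraries of a comparison reached 0.5 CPM. Counts were TMM scaled and tested with edgeR 4.0.16 (quasi-likelihood, Benjamini-Hochberg, calls at adjusted p under 0.05, R 4.3.3), with horse as a block. Standard errors were derived from the fold change and the F statistic. Single library measures were tested by exact sign flips, which with 7 pairs allow no two-sided p below 0.0156. The pairing comes from the file codes and the sampling of the same horses in both phases. As a check, each horse's libraries were expressed as deviations from the phase means, and these correlated by -0.148 to 0.385, over 0.1 in 6 of 7 horses. For 5 of 7, A5 and A6 excepted, the best match in the other phase was the horse's own library.

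Named by rule were the 2 genes that rose most and the 2 that fell most among called genes with a mean of at least 5 CPM and 1 direction in all 7 horses. Added were the genes the study names, where DESeq2 values matched 1 gene. Of these, DESeq2 values are not independent. Members, lists and rule were chosen with earlier results of these data known. No library pair was identical. Alternatives were DESeq2 1.42.0, limma 3.58.1 voom with quality weights, other scalings and filters, thinning of all libraries to 15537450 counts (5 draws), no block, all 24 libraries in 1 fit, and each horse left out. After seeing the data, DESeq2 without A6, robust dispersion and adjusted deviances were added. The functions were tested on simulated data.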

Additional observations from a re-analysis of the deposited data

Results flagged for a closer look

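Among 36 checks of 7 values each, 10 had their highest or lowest value farther from the other 6 than Dixon's 95% limit allows. For independent, normally distributed values chance gives about 1 in 20. Several checks share the libraries of A6 or use CPM that are skewed or near 0. The 10 flagged checks can therefore not be set against that rate. Horse A6 was the separate one in 5 of them. Its “Remission Phase” library had counts for 11802 genes and a median log2(CPM + 4) of 3.90, both below the other 6. The standard deviation of its log2 ratios of CPM + 4 was 0.956, above the other 6, and its median log2 ratio over all genes was 0.0307. Its “Clinical Phase” level of ENSECAG00000011929, 887 CPM, lay above the rest, as did the “Remission Phase” level of A5, 169 CPM. For the C1R-matched gene A7 stood apart in the “Remission Phase” at 16.9 CPM, and A3 in the “Clinical Phase” at 13.8 CPM. The same horses held the highest levels of the IGF2BP3-matched gene, A7 at 0.104 CPM from 3 counts and A3 at 0.627 CPM from 12 counts. No explanation of these values was tested.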

How the results depend on the processing

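The count of 221 calls moved with the model. It was 427 with no replicate block (319 higher, 108 lower), 1236 with DESeq2 (832 and 404), 469 with no filter on low counts (362 and 107), 959 with limma voom (680 and 279), 726 in a fit of all 24 libraries (477 and 249), 442 with adjusted deviances (343 and 99) and 1356 with DESeq2 without A6 (920 and 436). The last 2 were chosen after seeing the data. Leaving out each horse in turn gave 2 to 934 calls, 2 to 652 higher and 0 to 282 lower. It was 152 with edgeR's own filter, where the lower genes numbered 28, 231 with RLE scaling, 230 to 256 after thinning and 177 with robust dispersion. In healthy horses the 552 calls became 1441 with DESeq2 and 0 to 1766 with each horse left out (0 without H7, 4 without H1, 12 without H4, 137 without H2 and 1766 without H6). The interaction had 0 calls under all settings run. The 841 and 648 genes of 1 direction in all 7 horses were 826 and 592 with total counts, 904 and 571 with RLE and 883 and 574 after thinning. Over 22 settings, ENSECAG00000011929 was called in 14, ENSECAG00000023971 and the ND5-matched gene in 19, and ENSECAG00000011723 and ENSECAG00000010315 in 17, each with 1 direction. Most of their lost calls came from leaving out a horse. The KEF40-matched gene was called in 0 and changed sign to -0.32 with no replicate block, and to -0.12, -0.14 and -0.10 without A2, A3 and A4, with a range of -0.14 to 0.40 over the horses left out. The cause of these moves was not tested. Depth limits most what can be said of the 2577 genes under 1 CPM.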
